A study of Mus musculus with 12 samples.

Results

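The genes described here are 6 subunits of the GABA-A receptor (Gabra2, Gabra3, Gabra4, Gabra5, Gabrb2 and Gabrg3) and 2 chloride cotransporters (Slc12a2 and Slc12a5). They were found by symbol for the Ensembl identifiers in the count files, 8 genes of 51912 listed, and all 8 were among the 10678 genes that passed the filter on low counts. Each library holds RNA of 1 mouse embryo, taken from its cerebral cortex on embryonic day 15.5. Of the 12 embryos, 6 were mutants, labelled Emx1-Cre Arid1a conditional mutant, and the other 6 were labelled control with no statement of the alleles or Cre they carried. Arid1a encodes a subunit of the BAF chromatin remodelling complex. Emx1-Cre acts in cortical progenitors and the cells that descend from them, so interneurons that migrate in from the ventral forebrain, vessels and microglia keep the gene. Litter 2 gave mutants 3 to 6 and controls 5 and 6, and litter 1 gave mutants 1 and 2 and controls 1 to 4. Mutant 4 was the 1 male among the mutants, against males in controls 2 to 5. All libraries carried the label of 1 batch. Controls were thus mostly male and from litter 1, and mutants mostly female and from litter 2.

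GABA-A receptors are chloride channels that open when they bind the transmitter GABA. Each channel is a ring of subunits, usually of the alpha, beta and gamma classes, and the alpha subunit does much to set where the channel sits and how it responds. Which way chloride flows depends on the cell's own chloride: Slc12a2 (NKCC1) brings chloride into the cell, Slc12a5 (KCC2) carries it out, and in the immature cortex, where Slc12a5 is still low, GABA can depolarise neurons. The ratio of Slc12a5 to Slc12a2 is therefore a common readout of neuronal maturation.

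No member passed the test between mutant and control cortex, and in each of them the groups overlapped. The largest fitted differences were those of Gabrg3, Gabra3 and Slc12a5, with log2 fold changes of 0.83, 0.63 and 0.62, and that of Slc12a2 was 0.02. Called by edgeR's quasi-likelihood test with a Benjamini-Hochberg adjusted p under 0.05 over all genes were 0 of the 8 members, against 0.215% of all genes tested (17 lower and 6 higher in mutants). Gabra3 alone had an unadjusted p under 0.05 in that fit, as did 8.78% of all genes. DESeq2 and limma-voom each called 0 members as well, with 2 members at an unadjusted p under 0.05 in each, against 7.53% of all genes with DESeq2 and 9.13% with limma-voom. In 0 of the 8 members did all 6 mutants lie outside the range of the controls, which 1.26% of all genes did. The median log2 fold change was 0.16 over the members and -0.001 over all genes, with 6 members positive and 2 negative. Fold changes are given as log2, mutant minus control, from a model with terms for litter, sex and genotype.

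**Figure D1:**
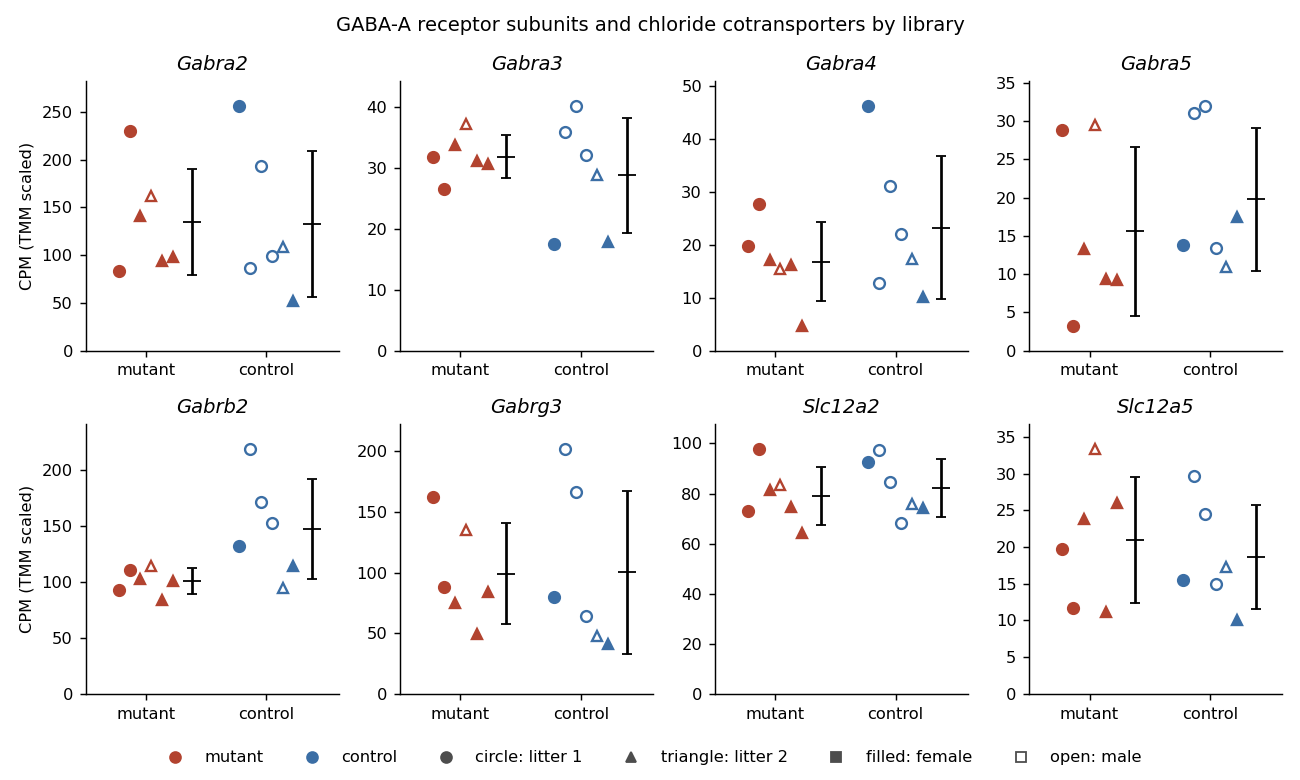
Normalised counts (CPM, scaled by TMM library sizes) of each member in every library, mutants on the left of each panel and controls on the right, with the mean and SD (n = 6 each) as a bar beside them. The mutants and controls overlapped in all 8 panels, and Gabrb2 lay between 83.5 and 114 CPM in mutants and between 94.9 and 219 CPM in controls.

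Gene totals ran from 643197 in mutant 1 to 3525121 in mutant 3 among mutants, and from 1476478 to 2815042 among controls. Arid1a itself had 447 ± 51.0 CPM over the mutants and 510.0 ± 42.3 over the controls (± SD, n = 6 per genotype, log2 fold change -0.30, edgeR adjusted p = 0.277); a gene total does not show the loss of a floxed exon. Emx1 had 54.2 CPM in mutants and 49.2 in controls, and all 10 genes of a list of cortical markers had counts in both groups. Summed, the cortical markers gave 2274 to 3189 CPM in mutants and 2520 to 4159 CPM in controls, and 9 of the 10 had negative log2 fold changes, with a median of -0.15. None of the 10 was called by edgeR, DESeq2 or limma-voom, and 2 had an unadjusted p under 0.05 with edgeR, 4 with DESeq2 and 4 with limma-voom. Summed over 18 interneuron markers, the level was 2063 to 3310 CPM in mutants and 1836 to 4226 CPM in controls, and over 16 markers of the ganglionic eminence and striatum it was 545.8 to 1884 CPM in mutants and 401.3 to 2059 CPM in controls. Of these 16 markers, 1 alone averaged 586 CPM in mutants and 607 CPM in controls, a large part of the sum. Choroid plexus markers, defined by Ttr, summed to 0.856 to 6.42 CPM in mutants and to 0 to 13.8 CPM in controls other than control 5, which had 175 CPM. In tissue of mixed cell types, fewer cells of a type and less RNA per cell cannot be told apart.

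Gabra2 encodes the alpha2 subunit, one of the main alpha subunits of the embryonic forebrain. Its gene (ENSMUSG00000000560.9) lies on mm10 chromosome 5 at 70957597 to 71095849, on the minus strand. Gabra2 stood at 141, 162, 94.2 and 98.5 CPM in the 4 mutants of litter 2 and at 109 and 51.5 CPM in its 2 controls. In litter 1 the 2 mutants had 83.6 and 229.9 CPM and the 4 controls had 257, 86.9, 193 and 99.3 CPM. For Gabra2, mutant 2, control 1 and control 3 were high, control 6 was low, and the groups overlapped in both litters. The means were 135 ± 55.5 CPM over the mutants and 133 ± 76.7 over the controls (± SD, n = 6 per genotype), and the log2 fold change was 0.31 (SE 0.490, adjusted p = 0.943). The fit to litter 2 alone gave 0.91 and that to litter 1 alone gave -0.69. With the sex term, litter 1 sets mutants 1 and 2 against control 1 alone, the only female control there, so this sign rests on 1 library, and the litter 1 fits of the other members rest on the same library.

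Gabra4 encodes the alpha4 subunit, known in the adult brain for receptors outside synapses in the thalamus and dentate gyrus. It lies in the same receptor gene cluster on chromosome 5, at 71569749 to 71658308 (ENSMUSG00000029211.11, minus strand). Gabra4 stood at 17.2, 15.4, 16.3 and 4.65 CPM in the 4 mutants of litter 2 and at 17.4 and 10.1 CPM in its 2 controls. For litter 1 the values were 19.8 and 27.7 CPM in the 2 mutants and 46.4, 12.7, 31.3 and 22.0 CPM in the 4 controls. Control 1 was highest for both Gabra4 and Gabra2. The lowest Gabra4 value, in mutant 6, stands for 5 counts, so counting error is large there. Gabra4 averaged 16.8 ± 7.44 CPM over the mutants and 23.3 ± 13.6 over the controls (± SD, n = 6 per genotype), and its log2 fold change came to -0.27 (SE 0.406, adjusted p = 0.933). Without control 1 its log2 fold change was 0.32. Exons of Gabra4 overlap those of Gabrb1 on the opposite strand. Whether reads were counted by strand is not given in the sources used here. Some reads of every library were set aside as ambiguous between genes, and whether those from the shared stretch are among them is not known.

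The levels of Gabra2 and Gabra4 followed each other over the 12 libraries, with Pearson's r = 0.687 (permutation p = 0.0128) and Spearman's rho = 0.671 (permutation p = 0.0202), computed on log2 CPM. Adjusted over the 28 pairs of members the p-values were 0.140 for r and 0.188 for rho, so the relation did not pass. It was 0.870 in litter 1 and 0.378 in litter 2, and 0.475 without the 2 libraries farthest from the median of Gabra2. The starts of both genes are shown because the pair shares a cluster and an orientation. Both sequences are RefSeq promoters of build GRCm38.p6, from 250 bases before the gene's start to 50 after it, printed 5′ to 3′ along the minus strand at chr5:71095800-71096099 for Gabra2 and chr5:71658259-71658558 for Gabra4. Capitals mark the GC box hexamer GGGCGG or its reverse complement CCGCCC.
Gabra2: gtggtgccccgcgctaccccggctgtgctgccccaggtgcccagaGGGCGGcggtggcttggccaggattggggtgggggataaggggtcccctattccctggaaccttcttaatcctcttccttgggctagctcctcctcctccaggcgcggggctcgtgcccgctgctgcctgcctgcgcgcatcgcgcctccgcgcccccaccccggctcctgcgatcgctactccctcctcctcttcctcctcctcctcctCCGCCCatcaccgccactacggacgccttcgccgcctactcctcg
Gabra4: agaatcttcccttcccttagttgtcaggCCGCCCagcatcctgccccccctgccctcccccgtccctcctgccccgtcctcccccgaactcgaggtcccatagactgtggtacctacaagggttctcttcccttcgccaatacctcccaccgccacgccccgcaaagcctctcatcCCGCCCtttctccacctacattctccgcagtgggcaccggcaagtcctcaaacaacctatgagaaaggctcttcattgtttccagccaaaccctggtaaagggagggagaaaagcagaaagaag
The Gabra2 window held 25 CpG dinucleotides and 70.0% G or C, and the Gabra4 window held 12 CpG and 58.7%, against medians of 7 CpG and 52.7% over 32851 promoters of the same length. Each window held 2 matches to GGGCGG on either strand, a motif present in 35.7% of those promoters, and neither held TATAAA on either strand, which 13.6% held. A match describes the letters and is not evidence of a bound site.

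Gabra3 encodes the alpha3 subunit, another alpha subunit abundant before birth, and is X-linked (ENSMUSG00000031343.13, chromosome X at 72432681 to 72656848, minus strand). Gabra3 stood at 33.8, 37.2, 31.3 and 30.7 CPM in the 4 mutants of litter 2 and at 28.9 and 17.9 CPM in its 2 controls. In litter 1 the 2 mutants had 31.9 and 26.6 CPM and the 4 controls had 17.6, 36.0, 40.3 and 32.1 CPM. The mutants lay in a narrow band inside the range of the controls, and the 2 lowest libraries of all 12 were controls 1 and 6, the only control females. The mean was 31.9 ± 3.52 CPM over the mutants and 28.8 ± 9.38 over the controls (± SD, n = 6 per genotype). Fitted with litter and sex, the log2 fold change was 0.63 (SE 0.184, 95% interval 0.20 to 1.05, unadjusted p = 0.00320, edgeR adjusted p = 0.220). That value depended on the sex term: without it the log2 fold change was 0.24 (adjusted p = 0.815), and among females alone it was 0.79 (adjusted p = 0.168). It was 0.67 in litter 2 alone and 0.71 in litter 1 alone, where the fit sets the mutants against control 1, at 17.6 CPM. The means in litter 1 ran the other way, at 29.3 CPM for the 2 mutants against 31.5 CPM for the 4 controls.

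Split by sex, Gabra3 stood at 37.2 CPM in the male mutant and 30.8 ± 2.64 CPM in female mutants (SD, n = 5), and at 34.3 ± 4.92 CPM in male controls (n = 4) and 17.8 ± 0.273 CPM in female controls (n = 2). The female mutants, at 26.6 to 33.8 CPM, all lay above both female controls, at 17.6 and 17.9 CPM. How many of all genes separate these 5 libraries from these 2 was not counted. The male mutant lay within the 28.9 to 40.3 CPM of the male controls. The term for sex by genotype, added after these values were seen, was -0.68 for Gabra3 (SE 0.344, unadjusted p = 0.0671, adjusted p = 0.9997), and it rests on the 1 male mutant. edgeR called 0 members and 0% of all genes for that term, and at an unadjusted p under 0.05 stood 0 members and 425 of all genes.

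Gabra5 encodes the alpha5 subunit, known for receptors outside synapses in the hippocampus. It lies on chromosome 7 at 57407672 to 57510059 (ENSMUSG00000055078.7, minus strand), in the receptor cluster that also holds Gabrg3. Gabra5 stood at 13.3, 29.5, 9.42 and 9.29 CPM in the 4 mutants of litter 2 and at 10.99 and 17.5 CPM in its 2 controls. For litter 1 the values were 28.9 and 3.19 CPM in the 2 mutants and 13.8, 31.1, 32.0 and 13.4 CPM in the 4 controls. High and low libraries occurred in both genotypes, and the lowest, mutant 2, had 3 counts of Gabra5. The means were 15.6 ± 11.02 CPM over the mutants and 19.8 ± 9.34 over the controls (± SD, n = 6 per genotype). The log2 fold change was 0.02 (SE 0.509, 95% interval -1.16 to 1.19, adjusted p = 0.9997), so a change of 2-fold in either direction lies inside its interval. The counts of Gabra5 are uncertain where annotated genes overlap it on the opposite strand, among them the antisense gene Gm9962 with 8 counts over all libraries. If counted without strand, reads of such pairs may have been set aside as ambiguous.

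Gabrb2 encodes the beta2 subunit, which pairs with alpha1 in much of the adult brain. The gene lies on chromosome 11 at 42419757 to 42629028 (ENSMUSG00000007653.12, plus strand). Gabrb2 stood at 103, 114, 83.5 and 101 CPM in the 4 mutants of litter 2 and at 94.9 and 114 CPM in its 2 controls. In litter 1 the 2 mutants had 92.7 and 111 CPM and the 4 controls had 133, 219, 171 and 153 CPM. The high Gabrb2 libraries were thus the 4 controls of litter 1, each above all 6 mutants, while in litter 2 mutants and controls overlapped. How many of all genes share this order was not counted. The mean was 101 ± 11.4 CPM over the mutants and 147 ± 44.3 over the controls (± SD, n = 6 per genotype). The log2 fold change was -0.24 with litter and sex in the model (SE 0.157, adjusted p = 0.743) and -0.55 with genotype alone (adjusted p = 0.159). It was -0.07 in litter 2 and -0.38 in litter 1. Those fits each had their own sex term, so the next term does not test the difference between these values. Fitted to both litters with a shared sex term, the genotype by litter term gave 0.52 for Gabrb2 (SE 0.263, unadjusted p = 0.0633, adjusted p = 0.711). Called for that term by edgeR were 0 of the 8 members, none of them at an unadjusted p under 0.05, and 0% of all genes (419 lower and 357 higher at an unadjusted p under 0.05).

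Gabrg3 encodes the gamma3 subunit, a less common partner than gamma2 in adult brain. It is the longest of the 8 genes, spanning 670.7 kb of chromosome 7 from 56716465 to 57387188 (ENSMUSG00000055026.13, minus strand). Gabrg3 stood at 74.8, 135, 49.7 and 83.6 CPM in the 4 mutants of litter 2 and at 47.4 and 40.9 CPM in its 2 controls. For litter 1 the values were 163 and 88.3 CPM in the 2 mutants and 80.3, 202, 166 and 64.6 CPM in the 4 controls. The mutants of litter 2 ran from 49.7 to 135 CPM, above its controls at 40.9 and 47.4 CPM, and in litter 1 the groups overlapped. How many of all genes separate 4 mutants from 2 controls in this way was not counted, and Gabra3 also did so in litter 2. The means were 99.0 ± 41.7 CPM over the mutants and 100.2 ± 67.4 over the controls (± SD, n = 6 per genotype). The fitted log2 fold change was 0.83 (SE 0.395, 95% interval -0.08 to 1.75, edgeR adjusted p = 0.610), and it was 1.05 in litter 2 (adjusted p = 0.151) and 0.61 in litter 1 (adjusted p = 0.948). With genotype as the only term it was -0.08.

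Slc12a2, the chloride importer, had the narrowest range relative to its level of all 8 members over the 12 libraries. It lies on chromosome 18 at 57878678 to 57946821 (ENSMUSG00000024597.10, plus strand). Slc12a2 stood at 81.4, 83.5, 74.5 and 64.1 CPM in the 4 mutants of litter 2 and at 75.8 and 74.1 CPM in its 2 controls. In litter 1 the 2 mutants had 72.9 and 97.9 CPM and the 4 controls had 92.8, 97.5, 84.8 and 68.3 CPM. The groups covered nearly the same range. Slc12a2 averaged 79.1 ± 11.5 CPM over the mutants and 82.2 ± 11.4 over the controls (± SD, n = 6 per genotype), a coefficient of variation of 14.6% in mutants and 13.9% in controls, where counting error alone would give 10.8% in mutants and 7.7% in controls. The log2 fold change was 0.02 (SE 0.133, 95% interval -0.29 to 0.32, adjusted p = 0.9997). Control 5, the library with choroid plexus RNA, had 75.8 CPM of Slc12a2, within the range of the others.

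Slc12a5, the chloride exporter, lies on chromosome 2 at 164960802 to 164999731 (ENSMUSG00000017740.17, plus strand) and gave 11 to 86 counts per mutant library and 22 to 65 per control library. Slc12a5 stood at 23.8, 33.4, 11.1 and 26.0 CPM in the 4 mutants of litter 2 and at 17.4 and 10.1 CPM in its 2 controls. For litter 1 the values were 19.8 and 11.7 CPM in the 2 mutants and 15.5, 29.7, 24.5 and 14.9 CPM in the 4 controls. Low libraries occurred in both genotypes, and 3 of the 4 mutants of litter 2 lay above both controls of that litter. Slc12a5 averaged 20.97 ± 8.63 CPM over the mutants and 18.7 ± 7.13 over the controls (± SD, n = 6 per genotype), and its log2 fold change came to 0.62 (SE 0.317, 95% interval -0.11 to 1.35, adjusted p = 0.618). It was 0.97 in litter 2 alone (adjusted p = 0.391) and -0.03 in litter 1 alone, and 0.22 without the sex term.

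The ratio of Slc12a5 counts to Slc12a2 counts does not depend on how libraries are scaled. In litter 2 it was 0.293, 0.400, 0.149 and 0.406 in the 4 mutants and 0.229 and 0.137 in the 2 controls. In litter 1 it was 0.271 and 0.120 in the 2 mutants and 0.167, 0.304, 0.289 and 0.219 in the 4 controls. Every library held more Slc12a2 than Slc12a5 counts. The 2 highest ratios were those of mutants 6 and 4, and the lowest was that of mutant 2, so the mutants enclosed the range of the controls. The mean ratio was 0.273 ± 0.121 in mutants and 0.224 ± 0.0658 in controls (± SD, n = 6 per genotype). The mean log2 ratio was 0.20 higher in mutants, a fold of 1.15, which did not pass a two-sided exact permutation test (p = 0.580, 924 arrangements, adjusted p = 0.602 over 3 contrasts).

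Within litter 2 the mean ratio was 0.312 ± 0.120 in mutants (n = 4) and 0.183 ± 0.0653 in controls (n = 2), a log2 difference of 0.71 (exact permutation p = 0.267, 15 arrangements). Within litter 1 it was 0.195 ± 0.107 in mutants (n = 2) and 0.245 ± 0.0640 in controls (n = 4), a log2 difference of -0.40 (exact permutation p = 0.400, 15 arrangements). The smallest p that 15 arrangements allow is 0.0667, so neither litter could pass. A linear model with litter and sex gave 0.55 (SE 0.374, 95% interval -0.31 to 1.42), and without the 2 shallowest libraries, mutants 1 and 4, the difference was -0.006. Counting error alone is wide at this depth: the 95% interval of the ratio ran from 0.252 to 0.638 in mutant 6 and from 0.0577 to 0.224 in mutant 2. These intervals cover counting error only.

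**Figure D2:**
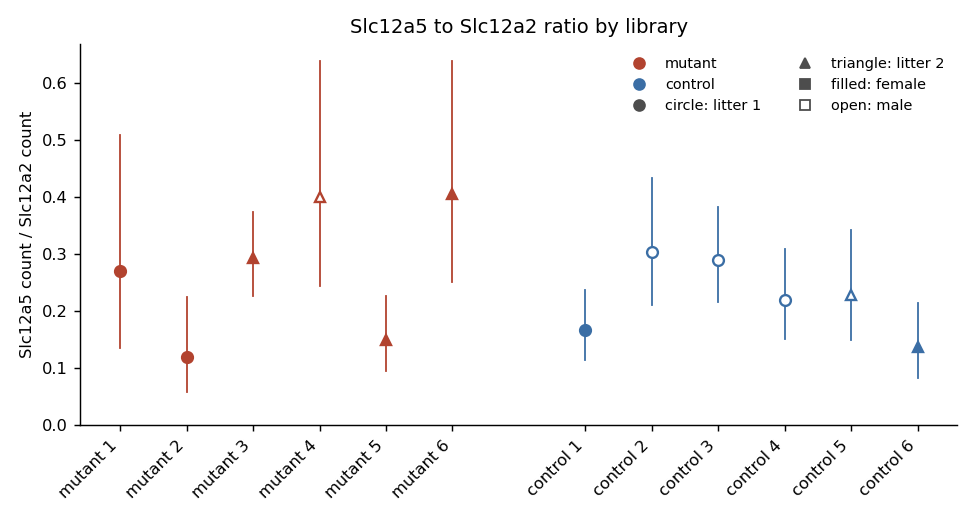
Ratio of Slc12a5 counts to Slc12a2 counts in each library, mutants 1 to 6 on the left and controls 1 to 6 on the right, with bars for the 95% interval from counting error. Mutants ranged from 0.120 to 0.406 and controls from 0.137 to 0.304, and most intervals overlapped.

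Over the 12 libraries together, the levels of Slc12a5 and Gabrg3 followed each other more closely than those of any other pair of members. Pearson's r was 0.722 (permutation p = 0.00957) and Spearman's rho was 0.706 (permutation p = 0.0123), and adjusted over the 28 pairs they were 0.140 and 0.188, so this pair did not pass either. Within litters r was 0.868 in litter 1 and 0.922 in litter 2, and it was 0.632 without the 2 libraries farthest from the median of Gabrg3. With levels centred within genotype it was 0.719, below Gabrb2 with Gabrg3 (0.791) and Gabra2 with Gabra4 (0.747). Other pairs were also closer within a litter, such as Gabra5 with Slc12a5 in litter 1 (0.891) and Gabra2 with Gabra3 in litter 2 (0.953). Mutant 4 and controls 2 and 3 were high for both genes, and control 6 was lowest for both. For Slc12a5 and Slc12a2, r was 0.099 (permutation p = 0.750) and rho was 0.154 (permutation p = 0.633), 0.875 and 0.808 after adjustment. Of the 28 pairs, 0 passed the adjustment and 6 had an unadjusted permutation p under 0.05 for r. The share over pairs of all genes was not computed, so the 6 are not read as a result about the members. The starts of Gabrg3 and Slc12a5 are shown in the same form as above, for Gabrg3 along the minus strand at chr7:57387166-57387465 and for the first of 2 listed Slc12a5 starts along the plus strand at chr2:164960596-164960895, with GGGCGG or CCGCCC in capitals.
Gabrg3: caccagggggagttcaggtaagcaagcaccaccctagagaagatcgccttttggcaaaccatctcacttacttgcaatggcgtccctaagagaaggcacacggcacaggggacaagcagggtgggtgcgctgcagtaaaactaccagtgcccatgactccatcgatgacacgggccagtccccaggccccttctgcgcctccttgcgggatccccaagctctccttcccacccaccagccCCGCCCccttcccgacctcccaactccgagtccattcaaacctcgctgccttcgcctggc
Slc12a5: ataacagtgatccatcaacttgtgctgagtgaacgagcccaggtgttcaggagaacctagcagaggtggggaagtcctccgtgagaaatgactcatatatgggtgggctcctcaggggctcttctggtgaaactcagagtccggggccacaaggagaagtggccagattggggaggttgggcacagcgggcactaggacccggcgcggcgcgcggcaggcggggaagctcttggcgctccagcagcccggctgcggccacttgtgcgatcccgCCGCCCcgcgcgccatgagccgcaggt
The Gabrg3 window held 13 CpG and 61.0% G or C, and the Slc12a5 window held 21 CpG and 63.7%. Each held 1 match to GGGCGG on either strand, against 35.7% of all promoters with at least 1, and neither held TATAAA. The windows of both listed starts of Gabra3 overlap, and each held 0 CpG and no GGGCGG on either strand. Their 1 match to TATAAA is the same site in both, present as the reverse complement TTTATA.

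A score of 25 markers of interneurons and striatum, the mean of their standardised levels in a library, moved with Gabrg3. Pearson's r was 0.734 (permutation p = 0.00873) and Spearman's rho was 0.748 (permutation p = 0.00659), and adjusted over the 8 members these were 0.0698 and 0.0527, so neither passed. The relation was 0.916 in litter 1 and 0.443 in litter 2, and 0.561 without the 2 libraries farthest from the median score. Mutant 1 and controls 2 and 3 were high for both measures. Other libraries departed from this: mutant 6 had a score of 0.942 with 83.6 CPM of Gabrg3, and mutant 4 a score of -0.478 with 135 CPM. For Slc12a5 r was 0.504 (permutation p = 0.0982) and rho 0.538 (permutation p = 0.0762), with adjusted values of 0.298 and 0.203, and for Slc12a2 r was 0.107 (permutation p = 0.735) and rho 0.035 (permutation p = 0.922). With the score in the model the log2 fold change of Gabrg3 was 0.40, that of Slc12a5 0.31 and that of Gabra3 0.50, against 0.83, 0.62 and 0.63 without it. Other members moved differently: Gabra2 went from 0.31 to 0.59, Gabrb2 from -0.24 to -0.38 and Gabra5 from 0.02 to -0.41. Gabra4 went from -0.27 to 0.094 and Slc12a2 from 0.02 to 0.001. The part that cells of ventral origin play in these levels was not tested.

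**Figure D3:**
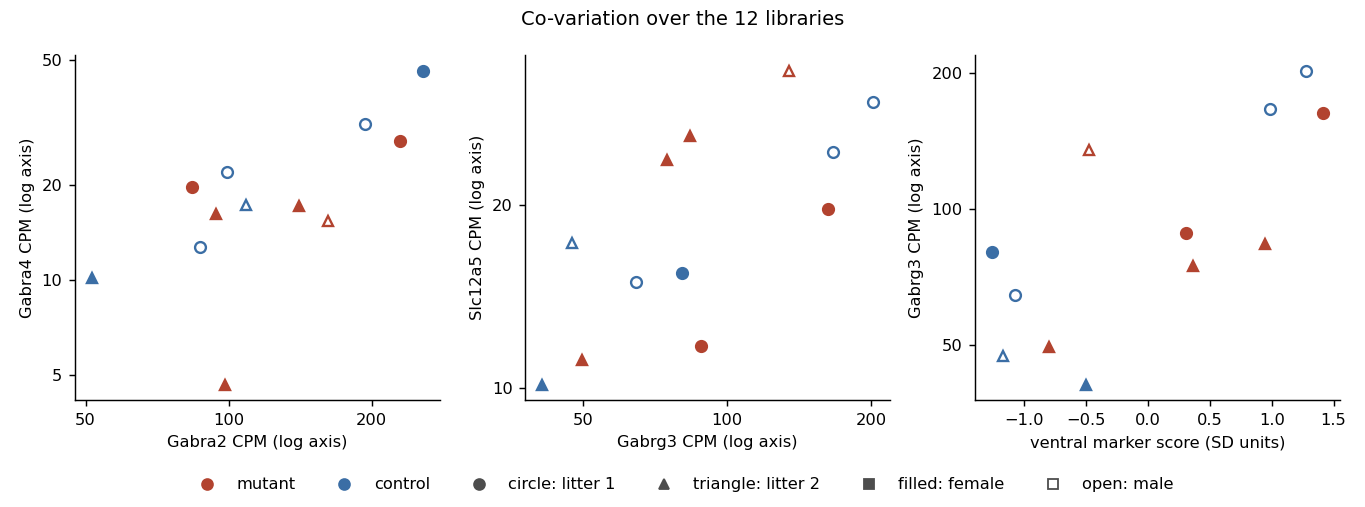
Levels in each of the 12 libraries, with colour for genotype, shape for litter and fill for sex: Gabra4 against Gabra2 CPM (log axes), Slc12a5 against Gabrg3 CPM (log axes), and Gabrg3 CPM (log axis) against the score of interneuron and striatal markers (in standard deviations). Pearson's r was 0.687, 0.722 and 0.734 in these 3 panels, and mutants and controls were intermixed in each.

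Litter was the contrast in which all 8 members had the same sign. Set as litter 2 minus litter 1, their log2 differences were negative, as were those of 50.9% of all genes. The median was -0.34 over the members and -0.006 over all genes. By span, the median over all genes was -0.059 above 300 kb, the class of Gabrg3, and -0.001 at 100 to 300 kb. Gabrg3 had -1.04 (SE 0.348, edgeR adjusted p = 0.202), Gabra4 had -0.95 (SE 0.354, adjusted p = 0.224) and Gabrb2 had -0.37 (SE 0.141, adjusted p = 0.219). Gabra2 had -0.71, Gabra5 -0.30, Slc12a2 -0.19, Gabra3 -0.11 and Slc12a5 -0.10. edgeR called 0 of the 8 members for litter, against 1.31% of all genes. An unadjusted p under 0.05 was found for 3 of the 8 members and for 15.4% of all genes. DESeq2 and limma-voom were run for the genotype term only.

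In means, Gabrg3 stood at 71.9 ± 35.1 CPM in litter 2 and 127 ± 56.6 CPM in litter 1, and Gabra4 at 13.5 ± 5.09 CPM in litter 2 and 26.6 ± 11.6 CPM in litter 1 (± SD, n = 6 per litter). The ranges overlapped for both genes. The 4 other subunits tested were also negative between litters, with Gabrb1 at -0.97 (SE 0.371, adjusted p = 0.263). Beside these values, 15 of 17 interneuron markers and 6 of 8 markers of the ganglionic eminence and striatum had negative values, with medians of -0.36 and -0.68, 1 interneuron marker being called lower. Radial glia markers were negative in 7 of 8, with a median of -0.28 and Tnc called lower (-1.95, edgeR adjusted p = 2.146e-05), and those of astrocytes and oligodendrocyte precursors in 3 of 3, with a median of -0.66. Vessel and meninges markers were negative in 4 of 6 (median -0.20) and thalamic markers in 1 of 5 (median 0.26). Cortical markers had a median of 0.26, with 8 of 10 positive and 2 called higher. Whether these markers bear on the litter values was not tested. The ratio of Slc12a5 to Slc12a2 had a log2 difference of 0.18 between litters (exact permutation p = 0.602).

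Between the sexes, male minus female, edgeR called 0 of the 8 members against 0.00937% of all genes. An unadjusted p under 0.05 was found for 2 members and for 6.95% of all genes. Gabra3 had 0.71 (SE 0.173, 95% interval 0.31 to 1.11, unadjusted p = 0.000674, adjusted p = 0.558) and Slc12a5 had 0.76 (SE 0.289, adjusted p = 0.706). Gabrg3 had 0.82 (SE 0.368), Gabra5 0.69 (SE 0.465) and Gabrb2 0.28 (SE 0.151). Below 0 lay Gabra4 with -0.36 (SE 0.374), Slc12a2 with -0.01 (SE 0.127) and Gabra2 with -0.008 (SE 0.450). The median over the members was 0.49 and that over all genes -0.004. This contrast moved with gene length over the whole table: the median was 0.13 for genes spanning over 300 kb, the class of Gabrg3, 0.05 for those of 100 to 300 kb, the class of Gabra3, and -0.12 for those up to 10 kb. Slc12a5 spans 38.9 kb, in a class with a median of 0.01. Markers of the ganglionic eminence and striatum were positive in 8 of 8 (median 0.53) and those of radial glia negative in 8 of 8 (median -0.41), with 0 called, and their part in the values by sex was not tested. The ratio of Slc12a5 to Slc12a2 was 0.288 ± 0.0727 in males (n = 5) and 0.220 ± 0.106 in females (n = 7), a log2 difference of 0.49 (two-sided exact permutation p = 0.164, adjusted p = 0.492).

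**Figure D4:**
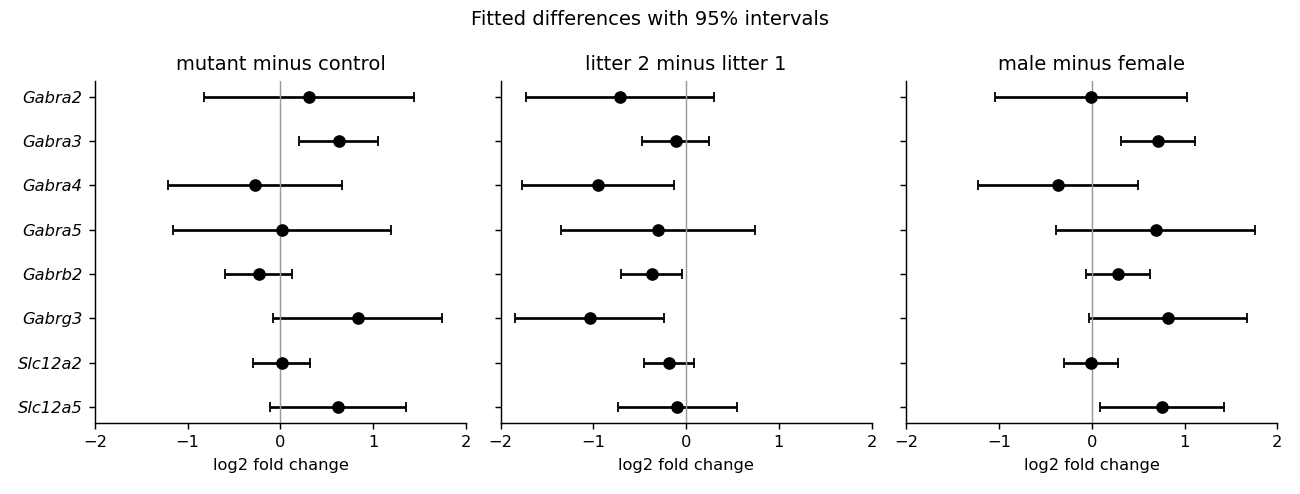
Fitted log2 fold changes of the 8 members with 95% intervals for mutant minus control, litter 2 minus litter 1 and male minus female, all from the model with the 3 terms. All 8 litter values were negative, and intervals that left out 0 belonged to Gabra3 for genotype, to Gabra4, Gabrb2 and Gabrg3 for litter and to Gabra3 and Slc12a5 for sex; none passed after adjustment over all genes.

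Levels can be compared between genes only per length. Per kb of merged exon, Gabra2 had 17.6 ± 7.26 CPM over the mutants and 17.4 ± 10.04 over the controls, and Gabrb2 had 15.9 ± 1.79 CPM over the mutants and 23.2 ± 6.96 over the controls (± SD, n = 6 per genotype). At the other end, Gabra4 had 2.77 ± 1.22 CPM per kb in mutants and 3.83 ± 2.23 in controls, and Slc12a5 had 2.82 ± 1.16 CPM per kb in mutants and 2.51 ± 0.957 in controls. In controls the order from high to low was Gabrb2, Gabra2, Gabrg3, Slc12a2, Gabra3, Gabra5, Gabra4 and Slc12a5. Of its neighbours, only Gabra2 stood above Gabrg3 by more than the spread over libraries, with a mean log2 ratio of 1.11 ± 0.87 (SD, n = 12) and the same order in 10 of 12 libraries. The other 6 neighbouring pairs had mean log2 ratios smaller than their SD.

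The order changed when levels were divided by the whole span of the gene. This matters here because few alignments fell on no feature (5.79 to 8.88% of those aligned uniquely in mutants and 5.82 to 6.45% in controls), so gene totals may hold intronic reads, and the feature type counted is not given in the sources used here. Per kb of span, Slc12a2 was first in controls and Slc12a5 was at place 4, with 1.16 ± 0.169 CPM of Slc12a2 in mutants and 1.21 ± 0.168 in controls, and 0.539 ± 0.222 CPM of Slc12a5 in mutants and 0.480 ± 0.183 in controls. Gabrg3 was at place 7 on that scale, with 0.148 ± 0.0622 CPM per kb in mutants and 0.149 ± 0.100 in controls. Of the neighbours by span in controls (Slc12a2, Gabra2, Gabrb2, Slc12a5, Gabra4, Gabra5, Gabrg3, Gabra3), only Slc12a5 stood above Gabra4 by more than the spread, with a mean log2 ratio of 1.27 ± 1.12 (SD, n = 12).

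**Figure D5:**
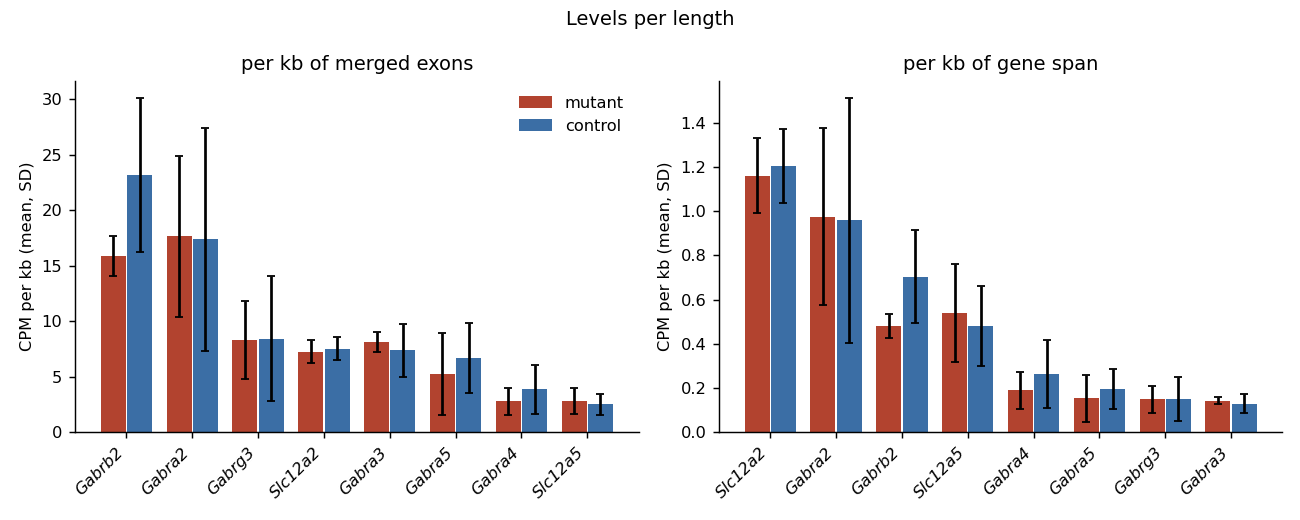
Mean levels in CPM per kb of merged exon and per kb of gene span, mutants left of controls for each gene, with SD (n = 6 each). Gabrb2 and Gabra2 led on the exon scale, with 15.9 and 17.6 CPM per kb in mutants and 23.2 and 17.4 in controls, and Slc12a2 led on the span scale, with 1.16 in mutants and 1.21 in controls.

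Genes around the members were taken from lists of their pathways, and in every list edgeR, DESeq2 and limma-voom each called 0 genes between genotypes. Among the 13 other GABA-A subunits, 4 passed the filter on low counts, with 0 called and 0 at an unadjusted p under 0.05 with any of the 3 tools. Gabrb1, the beta1 subunit, had 93.9 ± 30.3 CPM over the mutants and 141 ± 86.0 over the controls (log2 fold change -0.28, SE 0.420). Gabrg1 in the cluster of Gabra2 and Gabra4 had 3.26 CPM in mutants and 4.59 CPM in controls, below the filter. In the list of other cotransporters and chloride channels 12 of 15 were tested, with 0 called and 0 at an unadjusted p under 0.05 with any tool. The most abundant were Clcn5 and Clcn6, which encode chloride transporters of the endosome and lysosome, with log2 fold changes of -0.07 and 0.03. Among kinases and partners of the cotransporters 15 of 17 were tested and 0 called, with 2 at an unadjusted p under 0.05 in each tool. Grik2, a kainate receptor subunit that binds Slc12a5, had 0.23 (SE 0.167), and Wnk2, a kinase of the chloride-sensing WNK family, had -0.34 (SE 0.115, adjusted p = 0.309).

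All 23 measured genes of the inhibitory postsynapse and receptor trafficking were tested and 0 were called (unadjusted p under 0.05 in 2 genes with edgeR, 1 with DESeq2 and 2 with limma-voom), with 13 positive, 10 negative and a median of 0.07. The most abundant were Plcl1, which binds GABA-A receptors, at 570.0 ± 40.1 CPM over the mutants and 551 ± 64.7 over the controls, and Trak1, a trafficking adaptor, at 337 ± 51.2 CPM over the mutants and 338 ± 55.1 over the controls. Of 9 genes of GABA synthesis, transport and breakdown, 7 were tested, with 0 called, 0 at an unadjusted p under 0.05 with any tool, 6 positive and a median of 0.65. Gad2, which makes GABA, had 204 ± 79.4 CPM over the mutants and 154 ± 104 over the controls (SE 0.654 on a log2 fold change of 0.71). Beside them, 16 of 17 interneuron markers and 8 of 8 markers of the ganglionic eminence and striatum had positive values, with medians of 0.29 and 1.13 and 0 called (2 interneuron markers at an unadjusted p under 0.05 with edgeR, 3 with DESeq2 and 3 with limma-voom, and 0 of the others), while 9 of 10 cortical markers had negative values, and the part of these markers in the values of GABA genes was not tested. Of 8 genes of the GABA-B receptor, 7 were tested and 0 called, with 2 at an unadjusted p under 0.05 in each tool. Kcnj3, a potassium channel opened by that receptor, had 159 ± 27.3 CPM over the mutants and 216 ± 33.8 over the controls (log2 fold change -0.44, SE 0.147, adjusted p = 0.311), and the receptor subunit Gabbr1 had -0.16 (SE 0.104).

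The genes most like each cotransporter over the 12 libraries, among those with a mean of at least 20 CPM, differed between the 2. For Slc12a5 they included Tmem178b, Sos2, Dpp6 and Rcan2, with Pearson's r on log2 CPM of 0.932 to 0.906, and Gabrg3 came at place 143 of 7063 genes. For Slc12a2 they were Irf2bp2, BC005537, Fxr1, Armc1 and Clasp2, with r of 0.889 to 0.843, and the nearest member was Gabra2 at place 267 of 7062. These values describe the 12 libraries, which differ in depth and litter, and the part of either in them was not tested. Each list holds the highest of the 7062 or 7063 correlations ranked.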

How the data were processed

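Total RNA of 12 embryonic cortices, 600 ng per library, was depleted of ribosomal RNA and made into ClickSeq libraries, in which azido-nucleotides end reverse transcription and the adaptor is joined by click chemistry, per the labels' protocols. The authors deposited raw gene counts, 1 file per library, with no normalization. Per the submitters' processing notes, the build was mm10 and the tools were STAR 2.5.2a, HTSeq 0.6.1p1, UMI-tools 0.5.3, bcl2fastq 2.17, edgeR 3.20.9 and cutadapt 1.13; the sources used here do not give the counting mode, feature type or annotation. The 5 closing entries of each file, which name no gene, held 20.7 to 31.6% of its total and were left out.

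Symbols, spans and exon lengths came from GENCODE M21, and 279 of 51912 identifiers had no match. Counts were filtered by filterByExpr (minimum count 10), scaled by TMM and tested with edgeR 4.0.16 in R 4.3.3 (glmQLFit with robust = TRUE and glmQLFTest), the model having terms for litter, sex and genotype, which left 8 residual degrees of freedom. A gene was called at a Benjamini-Hochberg adjusted p under 0.05 over all 10678 tested, and edgeR is the test behind each adjusted p of a log2 fold change unless another is named. The SE is the log2 fold change divided by the square root of F. The script was tested on simulated counts. Embryos are the replicates, numbered in accession order; nothing in the labels says more of how they were bred or pooled.

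The ratio was tested by a two-sided exact permutation test, and each correlation, on log2 CPM, by 100000 permutations. DESeq2 1.42.0, limma-voom (limma 3.58.1), other scalings, filters and terms, equal depth, subsets and single left-out libraries were the alternatives; the genotype by sex term was added later. Python 3.11.15, pandas 2.3.3, scipy 1.17.1, numpy 2.4.6 and matplotlib 3.10.9 served for tables, tests and plots.

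The members and gene lists were chosen with earlier results of these data known. Named are all 8 members, the called genes and the 2 of highest mean CPM in each list of GABA, chloride and synapse genes, the 5 genes most like each cotransporter, Arid1a and Emx1, except that some genes are not reported here. Genes beyond these (Gabrg1) were named after their values were seen. Of the list of postsynaptic genes, 2 of 25 symbols (Nlgn4l and Insyn2a) had no match. Lists of radial glia, thalamus, vessels and meninges, microglia and glia were summed as further checks of the tissue: radial glia gave 1013 to 1930 CPM in mutants and 1241 to 2021 CPM in controls, thalamus 179 to 244 CPM in mutants and 141 to 260 CPM in controls, vessels and meninges 62.9 to 108 CPM in mutants and 64.8 to 91.4 CPM in controls, microglia 7.60 to 17.0 CPM in mutants and 12.0 to 17.6 CPM in controls, and astrocytes and oligodendrocyte precursors 23.6 to 66.9 CPM in mutants and 27.1 to 60.8 CPM in controls.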

Additional observations from a re-analysis of the deposited data

How the results depend on the processing

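No member was called between genotypes under any of the 28 alternatives, and Gabra3 (0.15 to 1.18) and Gabrb2 (-0.55 to -0.07) had the same sign in all 28. The other 6 members each changed sign under at least 1 alternative; the cause was not tested. Gabra5 had -0.11 with limma-voom, -0.012 with no filter, -0.10 without the litter term, -0.30 without the sex term, -0.48 with genotype only, -0.41 with the marker score, -0.37 in females, -0.63 without the 2 shallowest libraries and -0.29 to 0.64 with 1 library left out. Slc12a2 had -0.015 with no filter, -0.053 without the litter term, -0.054 with genotype only, -0.028 at equal depth, -0.11 in litter 1, -0.039 in females and -0.046 to 0.084 with 1 library left out. Gabra4 had 0.094 with the marker score, 0.078 at equal depth, 0.26 in litter 2 and -0.81 to 0.32 with 1 left out. Gabra2 had -0.039 without the litter term, -0.69 in litter 1 and -0.17 to 0.95 with 1 left out. Gabrg3 had -0.076 with genotype only, and Slc12a5 had -0.031 in litter 1. The log2 ratio difference was -0.40 in litter 1, -0.006 without the 2 shallowest libraries and 0.06 to 0.41 with 1 left out.

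Over all genes, edgeR's 23 calls became 95 with DESeq2, 261 with no filter, 35 at a mean of at least 1 CPM, 77 without the sex term, 141 with genotype only, 12 at equal depth, 64 in litter 2, 5 in litter 1, 44 in females, 6 to 55 with 1 library left out, and 0 (700 genes at an unadjusted p under 0.05) without mutants 1 and 4. No paired analysis was possible because replicate numbers follow accession order and pair no embryos; litter is a term of the model. Depth limits Gabra4, Gabra5 and Slc12a5 most, where single libraries held 3 to 13 counts.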

Other observations

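The genes most like Gabra2 and Gabrg3 over the 12 libraries were looked up after the values of both were seen, among 7062 genes with a mean of at least 20 CPM. For Gabra2 they were Slit3, Nrp2, Epha6, Nr2f1 and C130073E24Rik, with Pearson's r on log2 CPM of 0.924, 0.900, 0.869, 0.866 and 0.829. Slit3 is a secreted guidance cue, Nrp2 and Epha6 are guidance receptors, and Nr2f1 is a transcription factor that patterns cortical areas. Gabrb1, whose exons overlap those of Gabra4, came at place 6 with r = 0.829, and Gabra4 came at place 47 with r = 0.687. For Gabrg3 they were Gm20754, Tmem130, Rian, Gnaz and Ptch1, with r of 0.949, 0.948, 0.947, 0.947 and 0.942. Rian is a maternally expressed imprinted RNA, Gnaz a G protein subunit and Ptch1 the receptor of hedgehog ligands. These are descriptions of the same 12 libraries, with no test.

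The coefficient of variation over libraries was above the value from counting alone in both genotypes for every member but Gabra3, where it was so in controls only. No test was made of this, and in mutants the gap was small for Gabrb2 and for Slc12a2 (14.6% against 10.8%). The coefficient of variation of Gabra2 was 41.2% in mutants and 57.8% in controls, where counting alone would give 8.3% in mutants and 5.9% in controls. For Gabrg3 it was 42.1% in mutants and 67.2% in controls, against 10.4% and 7.2% from counting. For Gabra3 in mutants it was 11%, below the 17.0% that counting would give, and in controls it was 32.6%, against 13.1%. For Gabrb2 it was 11.3% in mutants and 30.1% in controls, against 9.6% and 5.8%.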
